A study of Mus musculus with 8 samples.

Results

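Molecular chaperones are proteins that help other proteins to fold, to assemble and to be removed once damaged. The genes described here are the heat shock and DNAJ chaperone genes, chosen by symbol alone: those that begin with Hspa, Hspb, Hspd, Hspe, Hsph, Hsp90 or Dnaj, and those made of Bag and a single digit, without pseudogenes marked -ps. The rule took 74 of the 16382 named genes and left out 3 pseudogenes. It gave 6 small heat shock proteins, 14 members of the Hsp70 family, 3 of Hsp90, 2 of the mitochondrial chaperonin, 40 Dnaj genes (4 Dnaja, 11 Dnajb and 25 Dnajc), 6 Bag genes and 3 genes that share only the prefix, namely Hspb11, Hspbp1 and Hspbap1. RNA came from whole soleus, a postural calf muscle, of female mice 7 months old, 4 Megf10 -/- (Megf10 KO) and 4 wild type (WT), with 1 library per mouse. Megf10 encodes a transmembrane receptor, and the KO mice lack its exon 4 in every tissue. Nothing in the sources used here gives the litter, cage or dissection order of the mice, and the study worked with Megf10 KO mice from more than 1 site. Each value is a gene count normalized by DESeq2, and each comparison set KO against WT in limma on log2(normalized count + 1) over all 16382 genes, with Benjamini-Hochberg adjustment and a call at an adjusted p under 0.05.

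Megf10 itself had normalized counts of 1.55, 7.76, 1.12 and 11.1 in KO replicates 1 through 4, against 63.0, 57.1, 69.7 and 70.0 in WT replicates 1 through 4, so each library matched its label. Normalized counts summed to 32.3 to 33.1 M per KO library and 33.6 to 35.7 M per WT library, and the depth recovered from the spacing of low values was 26.0 to 37.8 M reads in KO and 36.7 to 41.5 M in WT. Myh7 and Myh2, the myosins of type I (slow) and type IIa (fast) fibers, were abundant in every library. All 74 chaperone genes passed the filter used for all genes, a summed value above 5, and 2 of them, Dnajb3 and Dnajc22, had a mean under 10 normalized counts.

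In the chaperone cycle, Hsp70 proteins bind stretches of unfolded protein, DNAJ proteins bring those clients and make Hsp70 hydrolyse ATP, and Bag and Hsp110 proteins release ADP so that the client is let go. Hsp90 takes clients further along their folding, small heat shock proteins hold unfolding proteins without using ATP, and the Hspd1 and Hspe1 chaperonin folds proteins inside mitochondria. In muscle these proteins fold myosin, guard the Z-disc and clear filamin damaged by contraction, and several of their genes are mutated in human myopathies. Heat and other stress raise a subset of them through heat shock factor 1, which binds repeats of GAA and TTC called heat shock elements.

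The promoters are shown first because heat shock elements are how a subset of these genes is known to be controlled. Windows from 250 bases before to 50 bases after each start were taken from RefSeq on GRCm38.p6, an older build than the GRCm39 of the deposited values, and 60 of the 74 genes had at least 1 window. A run of 3 repeats (GAANNTTCNNGAA or TTCNNGAANNTTC, either strand) stood in the windows of 4 of these 60 genes, or 6.67%. The share was 0.662% of 27025 RefSeq genes and 0.599% of the 12026 genes tested that had a window. The 4 genes are Hspd1, Hspe1, Dnajb6 and Hsph1, and Hspd1 and Hspe1 share a single stretch, from which they are transcribed in opposite directions. A pair of repeats (GAANNTTC or TTCNNGAA, either strand, which every run of 3 also contains) stood in 16 of the 60 genes, or 26.7%. The share was 17.0% of RefSeq genes and 14.5% of the genes tested that had a window. The stretches below read 5′ to 3′ along each gene, with capitals on the repeats that make up runs of 3 in the first 3 lines (overlapping runs in Hspe1) and pairs in the others. The first 3 hold the runs of 3 repeats and the last 3 are from genes known to respond to heat or called here.
Hspe1, chr1:55088038-55088097, plus strand: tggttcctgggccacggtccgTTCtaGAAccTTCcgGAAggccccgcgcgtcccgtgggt
Dnajb6, chr5:29735828-29735887, plus strand: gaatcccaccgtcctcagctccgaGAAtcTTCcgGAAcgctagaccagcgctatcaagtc
Hsph1, chr5:149636287-149636316, minus strand, just after the start: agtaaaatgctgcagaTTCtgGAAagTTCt
Hspb1, chr5:135887786-135887845, plus strand: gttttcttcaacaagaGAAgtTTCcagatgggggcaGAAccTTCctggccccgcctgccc
Dnaja4, chr9:54699462-54699521, plus strand: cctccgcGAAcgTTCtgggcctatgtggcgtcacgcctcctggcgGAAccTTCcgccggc
Hspa1a, chr17:34972227-34972286, minus strand: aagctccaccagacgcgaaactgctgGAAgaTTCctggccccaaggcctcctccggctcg
The Hspa1b stretch at chr17:34959309-34959368 has the same letters as that of Hspa1a. Of the 8 chaperone genes that limma called, 6 had a window, 1 of them (Hsph1) with a run of 3 repeats and 3 with a pair or more. Hsp90aa1 and Hspa9 had none to search. A match gives letters only and is not evidence that a factor binds there in soleus.

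Of the 74 chaperone genes, 5 rose and 3 fell in Megf10 KO soleus and 66 did not pass. That is 10.8% called, against 8.95% of all genes tested (5.16% higher and 3.79% lower in KO), so the share called was near that of genes at large. Hsp90aa1, Hsph1, Hspa4l, Hspb8 and Dnaja4 rose, by 0.50 to 0.76 on the log2 scale, and Dnajc9, Dnaja3 and Hspa9 fell, by 0.28 to 0.57. None of the 8 changed 2-fold. KO and WT libraries did not overlap for 15 chaperone genes (20.3%, against 17.2% of all genes), 8 with KO higher (8.63% of all genes) and 7 with KO lower (8.54%). The median log2 fold change was 0.04 over the 74 genes and -0.01 over all genes. An unadjusted p under 0.05 was reached by 21 of them (28.4%, against 25.5% of all genes). As these are bulk libraries, fewer cells of a type and less RNA per cell cannot be told apart for any gene below.

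**Figure D1:**
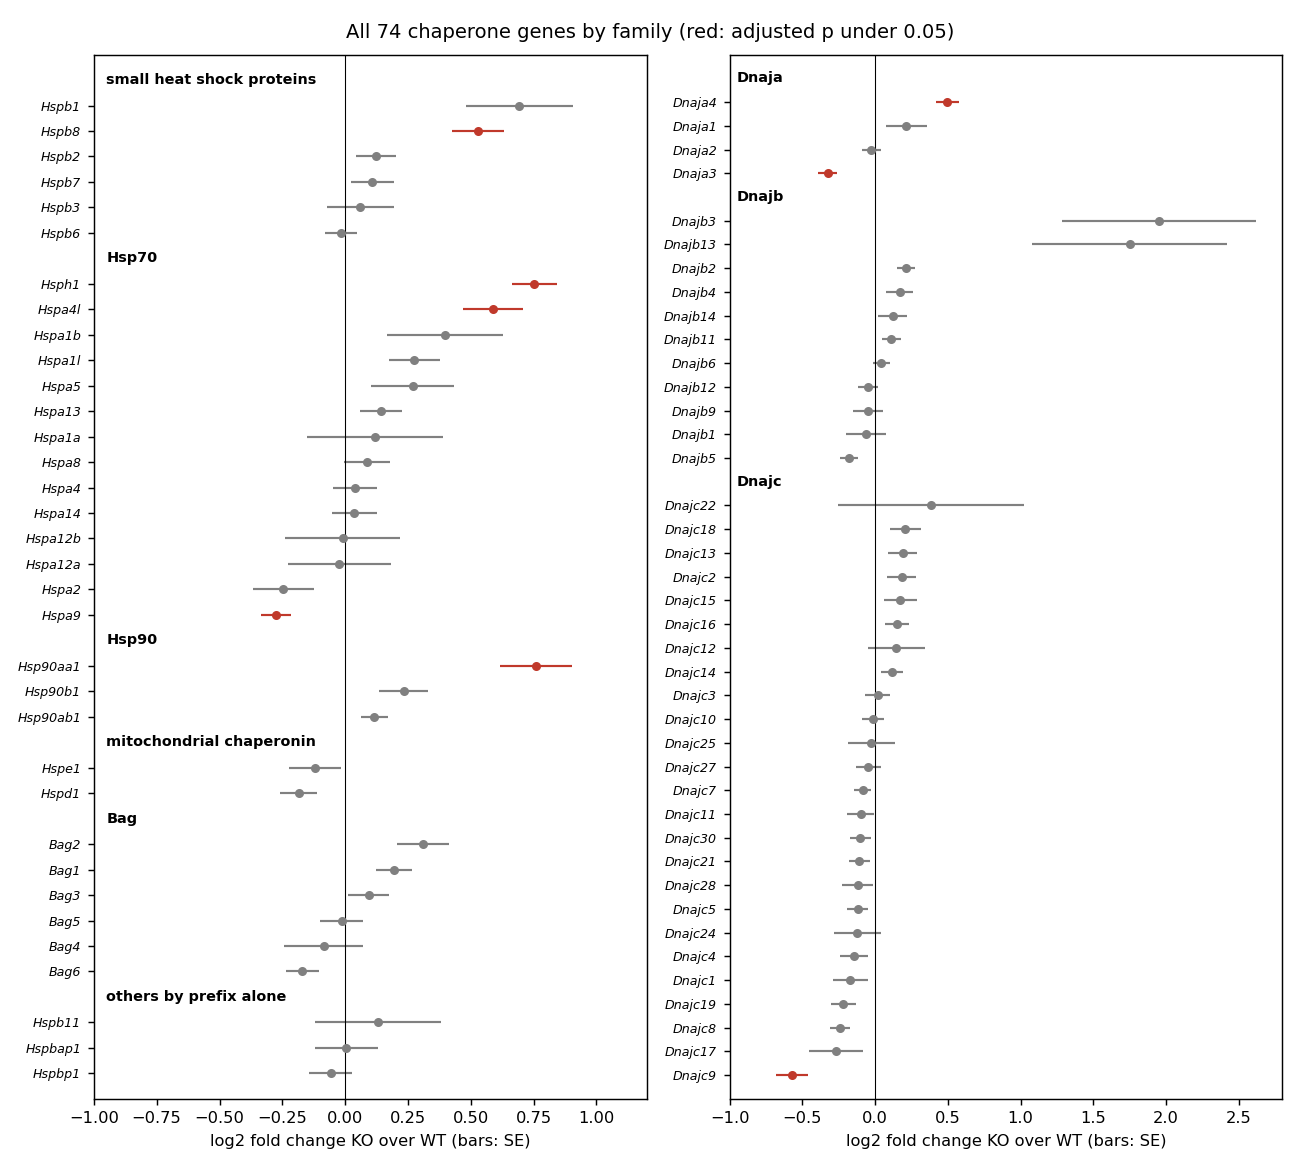
Log2 fold change of KO over WT for each of the 74 chaperone genes by family (horizontal axis, dots; bars are the SE from limma), with red for an adjusted p under 0.05. The 5 genes that rose lie between 0.50 and 0.76 and the 3 that fell between -0.57 and -0.28, while Dnajb3 and Dnajb13 lie furthest right at very low counts with wide bars.

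Of the 6 small heat shock proteins, Hspb8 rose and the other 5 did not pass, with a median log2 fold change of 0.12. Hspb8, which works with Bag3 to send damaged filamin to autophagy, had normalized counts of 16008, 14184, 19509.8 and 14112 in KO replicates 1 through 4, against 9847, 11089, 11973 and 11016 in WT replicates 1 through 4. Every KO library lay above every WT library, with KO replicate 3 highest. The means were 15954 ± 2528 in KO and 10981 ± 872 in WT (SD, n = 4), a log2 fold change of 0.53 (limma SE 0.104, Benjamini-Hochberg adjusted p = 0.0119). Without a trend in the variance prior it did not pass (limma adjusted p = 0.0572). Hspb1, the heat-induced small heat shock protein that guards actin filaments, had normalized counts of 21459, 11727, 26638 and 15848 in KO replicates 1 through 4, against 9530.1, 11373, 13170.4 and 10863 in WT replicates 1 through 4. KO replicate 2 lay among the WT libraries, whereas KO replicates 1, 3 and 4 lay above all of them. Its log2 fold change of 0.69 was as large as those of the genes called, but it did not pass (limma SE 0.212, Benjamini-Hochberg adjusted p = 0.0687), and its libraries varied more, with a within-genotype SD of 0.39 on the log2 scale. Of its 31-base stretches 52.3% also occur in the pseudogene Hsp25-ps1, so its reads could be split between copies, though Hsp25-ps1 is not among the genes tested. Without KO replicate 2 it was 0.90 and passed (limma adjusted p = 0.0148).

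Hspb6 (Hsp20, a phosphorylated chaperone of contractile tissue) and Hspb7 (a small heat shock protein of heart and skeletal muscle) had the highest normalized counts of the 74 genes, also per kilobase of transcript. Hspb6 had normalized counts of 103879, 89407, 101161 and 98108 in KO replicates 1 through 4, against 95263, 102246, 98974 and 99892 in WT replicates 1 through 4, and its genotypes overlapped (log2 fold change -0.016). Hspb7 had normalized counts of 106532, 93146, 105607 and 96114 in KO replicates 1 through 4, against 79043, 100529, 95728 and 97932 in WT replicates 1 through 4, with WT replicate 1 the lowest library and a log2 fold change of 0.11. Neither passed (limma adjusted p = 0.906 and 0.467). Hspb2 and Hspb3, which form a complex with each other in muscle, had log2 fold changes of 0.12 and 0.061. Per kilobase of the longest transcript, the WT means fell in the order Hspb6, Hspb7, Hspb1, Hspb8, Hspb2 and Hspb3, from 72703 to 933 normalized counts per kb, and the order in KO was the same. Cryab, the alpha-crystallin of the same protein family that the rule does not take, had normalized counts of 99343, 88779.8, 99569 and 89303 in KO replicates 1 through 4, against 75143, 85761, 88521 and 83063 in WT replicates 1 through 4. Its genotypes did not overlap, but it did not pass, at a log2 fold change of 0.18 (limma adjusted p = 0.140). Up to 252 bases of an Hspb2 exon overlap exons of Cryab on the opposite strand. As library strand is not given, some reads counted for Hspb2 could come from Cryab.

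Of the 14 Hsp70 genes, 2 rose, 1 fell and 11 did not pass, with a median log2 fold change of 0.10. Both genes that rose encode Hsp110 proteins, the relatives of Hsp70 that release ADP from it. Hsph1 (Hsp105), a heat-induced Hsp110, had normalized counts of 3721, 3049.6, 3861 and 3494 in KO replicates 1 through 4, against 1847, 2146, 2289.8 and 2085 in WT replicates 1 through 4. The lowest KO library lay well above the highest WT library. The means were 3532 ± 355 in KO and 2092 ± 184 in WT (SD, n = 4), a log2 fold change of 0.75 (limma SE 0.0906, Benjamini-Hochberg adjusted p = 0.00158), the smallest adjusted p of the 74 genes. Hspa4l (Osp94), another Hsp110, had normalized counts of 581, 587, 569 and 486 in KO replicates 1 through 4, against 430.3, 333, 396 and 323 in WT replicates 1 through 4. KO replicates 1 to 3 lay close together, KO replicate 4 was the lowest of the KO libraries, and the genotypes did not overlap. The log2 fold change was 0.59 (limma SE 0.119, Benjamini-Hochberg adjusted p = 0.0139), from 371 ± 51.3 in WT to 556 ± 47.0 in KO (SD, n = 4). The third Hsp110 gene, Hspa4, had a log2 fold change of 0.039 (limma adjusted p = 0.826).

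**Figure D2:**
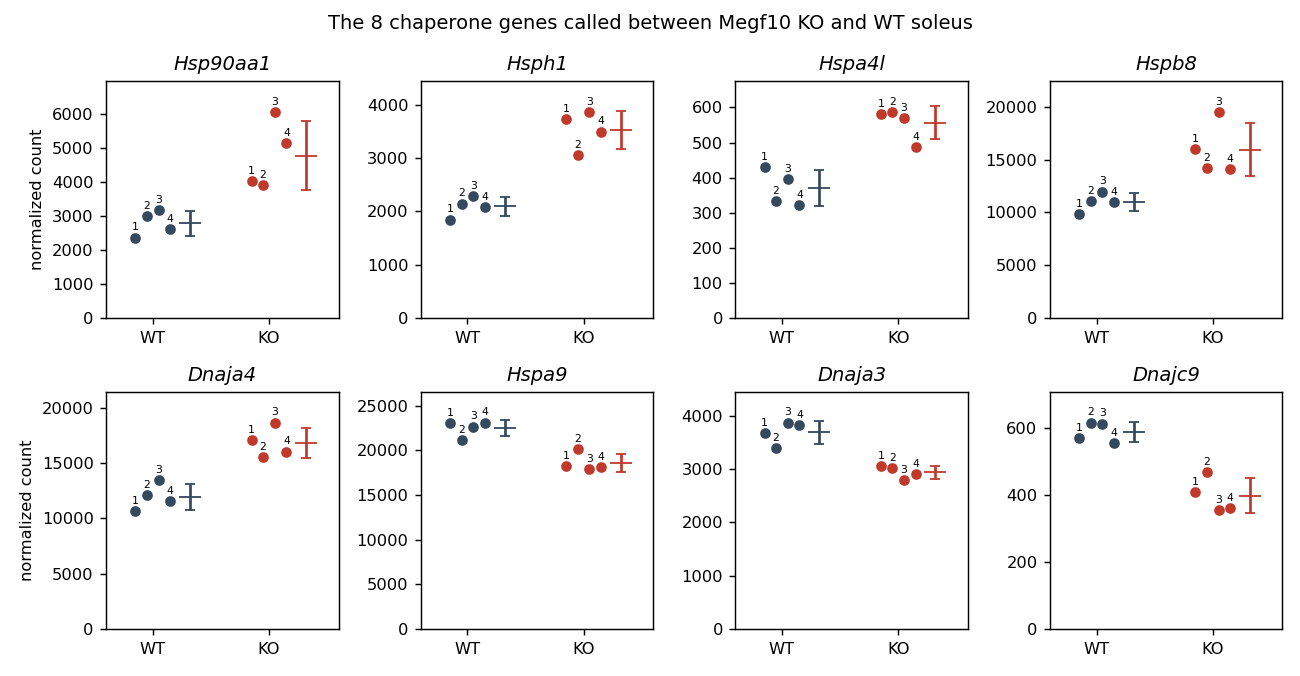
Normalized counts (vertical axes, each from 0) of the 8 chaperone genes called, in WT and KO libraries, with a dot and its replicate number for each library and the mean with SD beside each genotype (n = 4). The genotypes do not overlap in any of the 8 panels, and KO replicate 3 is the highest library for Hsp90aa1, Hsph1, Hspb8 and Dnaja4.

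Hspa9 (mortalin), the Hsp70 of mitochondria that pulls imported proteins into the matrix, had normalized counts of 18214, 20123, 17873 and 18148 in KO replicates 1 through 4, against 23075, 21125, 22653 and 23086 in WT replicates 1 through 4. KO replicate 2 stood above the other KO libraries and still below the lowest WT library. The log2 fold change was -0.28 (limma SE 0.0586, Benjamini-Hochberg adjusted p = 0.0173), from 22485 ± 929 in WT to 18589.5 ± 1033 in KO (SD, n = 4). Hspa9 lost its call without KO replicate 3 or WT replicate 4 (limma adjusted p = 0.0619 and 0.0526) and with libraries scaled to equal totals (log2 fold change -0.20, limma adjusted p = 0.0585). It also did without a trend in the variance prior (limma adjusted p = 0.0794).

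The stress-inducible Hsp70 genes Hspa1a and Hspa1b lie close together on chromosome 17 and differed more between mice than between genotypes. Hspa1a had normalized counts of 2957, 2126, 4097 and 3016 in KO replicates 1 through 4, against 1902, 2075, 4669 and 3016 in WT replicates 1 through 4. Hspa1b had normalized counts of 2023, 1434, 2791 and 1888 in KO replicates 1 through 4, against 1057, 1319, 2177 and 1669 in WT replicates 1 through 4. For Hspa1a the highest library was WT replicate 3 and for Hspa1b it was KO replicate 3, and both genes were lowest in WT replicate 1. The log2 fold changes were 0.12 (SE 0.271) and 0.40 (SE 0.231), and neither passed (limma adjusted p = 0.823 and 0.316). In GENCODE M21 transcripts, 65.4% of the 31-base stretches of Hspa1a and 68.0% of those of Hspa1b also occur in another gene, mostly in each other, so how reads were split between them is uncertain. Their sum was normalized counts of 4979, 3559.7, 6888 and 4904 in KO replicates 1 through 4, against 2959, 3394, 6846 and 4685 in WT replicates 1 through 4, again with overlap. Hspa1l, the neighbour of both that is best known from testis, had a log2 fold change of 0.28 (limma adjusted p = 0.119). Up to 1778 bases of an Hspa1l exon overlap exons of Gm10501 on the opposite strand.

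Hspa8 (Hsc70), the constitutive Hsp70 of the cytosol, had the highest level of the Hsp70 genes per kb of transcript, with  normalized counts of 53451, 42378, 57989.8 and 55819.9 in KO replicates 1 through 4, against 48975, 50463, 47232 and 49349 in WT replicates 1 through 4. The WT libraries lay close together and the KO libraries on both sides of them (log2 fold change 0.087, limma adjusted p = 0.596). Of the 31-base stretches of Hspa8 43.5% also occur in other genes, mostly in Gm15459, which itself had 2.50 to 17.2 normalized counts. Hspa5 (BiP), the Hsp70 of the endoplasmic reticulum that the unfolded protein response induces, had normalized counts of 10127, 11184, 11769.8 and 13160.4 in KO replicates 1 through 4, against 7953, 7254, 11283 and 12811 in WT replicates 1 through 4. WT replicates 1 and 2 were the lowest libraries, while WT replicates 3 and 4 lay within the KO range, and the log2 fold change of 0.27 did not pass (limma adjusted p = 0.348). Hspa13, a microsomal Hsp70, had non-overlapping genotypes but did not pass, at a log2 fold change of 0.14 (limma adjusted p = 0.316). Its spread within genotypes was the smallest of the chaperone genes with a mean of at least 10, an SD of 0.0449 on the log2 scale. The remaining Hsp70 genes, Hspa2, Hspa12a, Hspa12b and Hspa14, had log2 fold changes from -0.25 to 0.04, and none passed.

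Of the 3 Hsp90 genes, the stress-inducible Hsp90aa1 rose and the other 2 did not pass. Hsp90aa1 encodes a cytosolic Hsp90, and its zebrafish counterpart folds myosin in muscle together with Unc45b. It had normalized counts of 4029, 3909.8, 6074 and 5146 in KO replicates 1 through 4, against 2374, 3009.9, 3188 and 2629 in WT replicates 1 through 4. All KO libraries lay above all WT libraries, with KO replicates 3 and 4 highest. The means were 4789.5 ± 1021 in KO and 2800.2 ± 367 in WT (SD, n = 4), a log2 fold change of 0.76 (limma SE 0.143, Benjamini-Hochberg adjusted p = 0.0104). Of its 31-base stretches 51.4% also occur in other genes, mostly in Gm12346, which itself had 7.31 to 14.6 normalized counts.

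Hsp90ab1, the constitutive cytosolic Hsp90, had normalized counts of 58922, 53317, 56787 and 55305 in KO replicates 1 through 4, against 51539, 52054, 53254 and 49939 in WT replicates 1 through 4. KO replicate 2 lay just above the highest WT library, so that the genotypes did not overlap, yet the log2 fold change was 0.12 and did not pass (limma SE 0.0543, Benjamini-Hochberg adjusted p = 0.207). Hsp90b1 (Grp94), the Hsp90 of the endoplasmic reticulum, had normalized counts of 6284, 6014, 7050.2 and 7073 in KO replicates 1 through 4, against 4951, 5043, 6278 and 6295 in WT replicates 1 through 4. It showed the pattern of Hspa5, with WT replicates 1 and 2 lowest, and it did not pass, at a log2 fold change of 0.23 (limma SE 0.0969, Benjamini-Hochberg adjusted p = 0.161). Per kb of transcript, Hsp90ab1 stood far above Hsp90aa1, at 22255 against 1460 normalized counts per kb in KO and 20514 against 853 in WT.

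The chaperonin of mitochondria did not pass. Hspd1 (Hsp60), the ring that encloses the folding protein, had normalized counts of 6578, 7074, 6471 and 7085 in KO replicates 1 through 4, against 7663, 6892, 8587 and 7864 in WT replicates 1 through 4. Hspe1 (Hsp10), its lid, had normalized counts of 2386, 2167, 2446 and 2133 in KO replicates 1 through 4, against 2252, 2166, 3038 and 2536 in WT replicates 1 through 4. WT replicate 3 was the highest library for both genes, the genotypes overlapped, and the log2 fold changes were -0.19 and -0.12 (limma adjusted p = 0.138 and 0.519). Other genes, Hspd1-ps3 above all, hold 50.1% of the 31-base stretches of Hspd1, and other genes hold 24.8% of those of Hspe1. Hspd1-ps3 itself had 0 to 6.97 normalized counts. Some chaperone genes were also grouped by the compartment where they work. This was done after the values were seen, and each list may leave out members that belong. The 8 counted as mitochondrial were Hspa9, Hspd1, Hspe1, Dnaja3, Dnajc11, Dnajc15, Dnajc19 and Dnajc30. Of these, 7 had a log2 fold change below 0, 2 of them called, with a median of -0.15, and Dnajc15 had 0.17. Over all genes, 8031 of 16382 lay above 0 and 8.95% were called. The summed level of the 8 genes was 34669 to 37541 normalized counts in KO and 38452 to 44024 in WT, with no overlap. As a share of each library it was 0.105 to 0.116% in KO and 0.113 to 0.124% in WT, with KO replicate 2 above WT replicate 2, so the shares overlapped. The 8 genes counted for the endoplasmic reticulum (Hspa5, Hspa13, Hsp90b1, Dnajb9, Dnajb11, Dnajc1, Dnajc3 and Dnajc10) had a median of 0.06, 5 of them above 0 and none called.

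**Figure D3:**
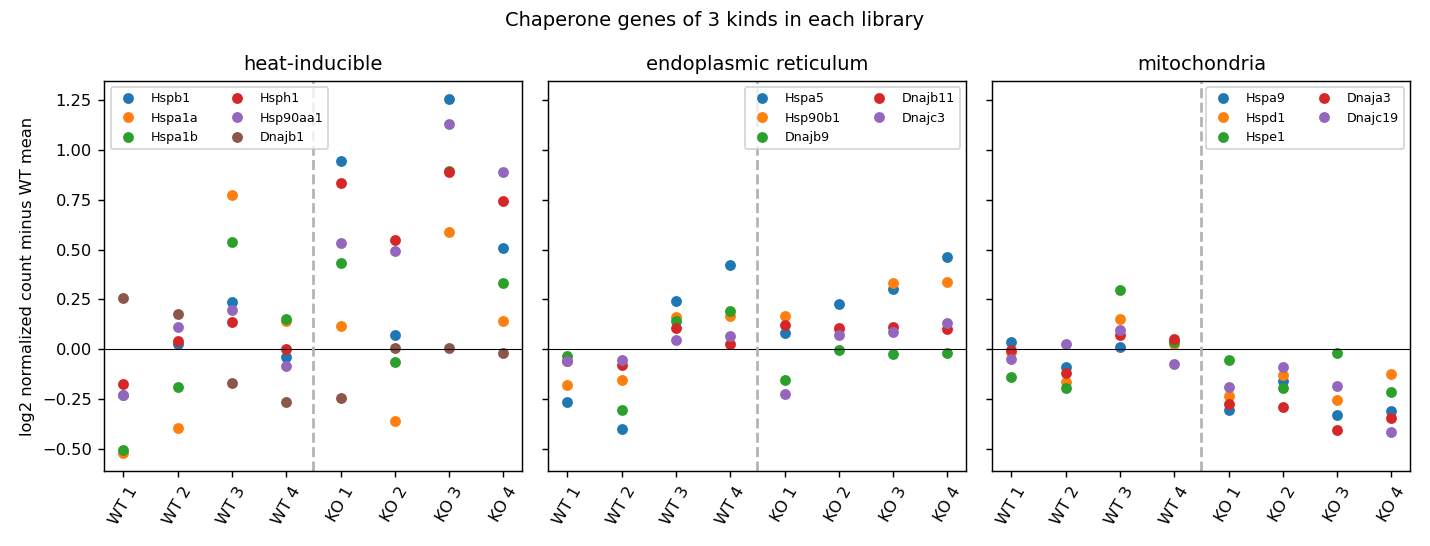
Log2 normalized count of each gene minus its WT mean (vertical axis) in every library (horizontal axis, WT left and KO right of the dashed line) for selected heat-inducible, endoplasmic reticulum and mitochondrial chaperones. Of the mitochondrial genes listed in the text, Dnajc11, Dnajc15 and Dnajc30 are not shown (log2 fold changes -0.10, 0.17 and -0.10). Of those of the endoplasmic reticulum, Hspa13, Dnajc1 and Dnajc10 are not shown. KO replicate 3 is highest for Hspb1, Hsph1, Hsp90aa1 and Hspa1b, WT replicates 1 and 2 are lowest for Hspa5 and Hsp90b1, and Hspa9 and Dnaja3 lie lower in all KO libraries than in any WT library.

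Of the 4 Dnaja genes, Dnaja4 rose, Dnaja3 fell and the other 2 did not pass. Dnaja4, a cytosolic partner of Hsp70, had normalized counts of 17077, 15567, 18651 and 16036 in KO replicates 1 through 4, against 10636, 12126, 13446 and 11561 in WT replicates 1 through 4. The genotypes did not overlap, with KO replicate 3 highest and WT replicate 1 lowest. The means were 16833 ± 1367 in KO and 11942 ± 1176 in WT (SD, n = 4), a log2 fold change of 0.50 (limma SE 0.0822, Benjamini-Hochberg adjusted p = 0.00573). Up to 1581 bases of a Dnaja4 exon overlap exons of Wdr61 on the opposite strand, and since strand in the library is not given in the sources used here, reads from both genes cannot be told apart there. Dnaja3 (Tid1) is the mitochondrial DNAJ partner of Hspa9, and a shorter form of it binds the synaptic receptor MuSK. It had normalized counts of 3051, 3021, 2788 and 2908 in KO replicates 1 through 4, against 3675, 3401, 3874 and 3830.2 in WT replicates 1 through 4. The KO libraries lay within a narrow range below all WT libraries. The log2 fold change was -0.33 (limma SE 0.0635, Benjamini-Hochberg adjusted p = 0.0115), from 3695 ± 214 in WT to 2942 ± 119.6 in KO (SD, n = 4). Without a trend in the variance prior it did not pass (limma adjusted p = 0.0530). Of the cytosolic Dnaja1 and Dnaja2, the latter had normalized counts of 6291, 5917, 6637 and 6255 in KO replicates 1 through 4, against 6984, 5869, 6422 and 6344 in WT replicates 1 through 4. Both had overlapping genotypes, with log2 fold changes of 0.22 and -0.028.

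None of the 11 Dnajb genes passed, and their median log2 fold change was 0.11. Dnajb1 (Hdj1), the heat-induced DNAJ protein of the cytosol, had normalized counts of 314, 373, 374 and 367 in KO replicates 1 through 4, against 444, 420.3, 329.9 and 309 in WT replicates 1 through 4. WT replicates 1 and 2 were highest, KO replicate 1 and WT replicate 4 lowest, and the log2 fold change was -0.061. Dnajb6, a Z-disc chaperone whose human gene is mutated in a limb-girdle muscular dystrophy, had normalized counts of 4411, 4296, 4653 and 4434 in KO replicates 1 through 4, against 4564, 4427, 4251 and 4060.5 in WT replicates 1 through 4. Its genotypes overlapped, with a log2 fold change of 0.041 (limma adjusted p = 0.709). The highest normalized counts of the Dnajb genes, not scaled for length, were those of Dnajb4 and Dnajb5. Dnajb4, a cytosolic DNAJ protein, had normalized counts of 6810.4, 7468, 9062 and 6640.1 in KO replicates 1 through 4, against 6241, 6421, 7237 and 6638 in WT replicates 1 through 4. KO replicate 3 stood above all other libraries, and it did not pass, at a log2 fold change of 0.17 (limma adjusted p = 0.309). Dnajb5, known in heart for its part in the redox control of a histone deacetylase, had normalized counts of 5469.9, 5464, 5949 and 5671 in KO replicates 1 through 4, against 6227, 6296, 6970.4 and 6043 in WT replicates 1 through 4. Every KO library lay below every WT library, but the log2 fold change of -0.18 did not pass (limma adjusted p = 0.100).

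Dnajb2, a DNAJ protein that binds ubiquitin, also had non-overlapping genotypes, here with KO higher, and missed the threshold (log2 fold change 0.21, limma adjusted p = 0.0663). At the low end, Dnajb13, a protein of the ciliary axoneme, had normalized counts of 22.4, 9.15, 20.6 and 12.1 in KO replicates 1 through 4, against 4.54, 15.7, 2.64 and 0.563 in WT replicates 1 through 4. WT replicate 2 lay among the KO libraries, and the log2 fold change of 1.75 did not pass (limma SE 0.671, Benjamini-Hochberg adjusted p = 0.131). Without WT replicate 2 it was 2.35 and passed (limma adjusted p = 0.0389). Up to 305 bases of a Dnajb13 exon overlap exons of Ucp2 on the opposite strand, where reads of both cannot be told apart. Dnajb3, a gene of testis that lay at 0 to 3.48 normalized counts in WT and at 2.59 to 8.78 in KO, overlapped between genotypes and did not pass. Of the other Dnajb genes, Dnajb9, Dnajb11, Dnajb12 and Dnajb14, the log2 fold changes ran from -0.05 to 0.12.

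Of the 25 Dnajc genes, Dnajc9 fell and the other 24 did not pass. The median log2 fold change was -0.09, with 9 of 25 above 0. Dnajc9, a chaperone of histones H3 and H4, had normalized counts of 409, 468, 354 and 359.8 in KO replicates 1 through 4, against 569, 616, 613 and 554 in WT replicates 1 through 4. KO replicate 2 was the highest of the KO libraries and lay below all WT libraries. The means were 398 ± 52.9 in KO and 588 ± 31.3 in WT (SD, n = 4), a log2 fold change of -0.57 (limma SE 0.109, Benjamini-Hochberg adjusted p = 0.0110). Dnajc8, known from the spliceosome, and Dnajc19, of the mitochondrial import motor, also had all KO libraries below all WT libraries. Neither passed, with log2 fold changes of -0.24 and -0.22 (limma adjusted p = 0.0587 and 0.145).

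Dnajc7 and Dnajc21 had the highest normalized counts of the Dnajc genes. Dnajc7, a co-chaperone that contacts both Hsp70 and Hsp90, had normalized counts of 3491, 3625, 3322 and 3356 in KO replicates 1 through 4, against 3514, 3829.8, 3573 and 3728 in WT replicates 1 through 4. Dnajc21, known for its part in making the large ribosomal subunit, had normalized counts of 2886, 2875, 2906 and 2604 in KO replicates 1 through 4, against 3058, 2832, 3399 and 2897 in WT replicates 1 through 4. Both had overlapping genotypes, with log2 fold changes of -0.086 and -0.11. Dnajc5, the cysteine string protein of synaptic vesicles, had -0.12 (limma adjusted p = 0.343). Among Dnajc genes with a mean of at least 10 that did not pass, the log2 fold changes ran from -0.27 for Dnajc17 to 0.21 for Dnajc18.

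None of the 6 Bag genes passed. Bag3, the partner of Hspb8 in chaperone-assisted autophagy whose human gene is mutated in a myofibrillar myopathy, had normalized counts of 13833, 11338, 13510.2 and 12644 in KO replicates 1 through 4, against 11457, 10816, 12788 and 13034 in WT replicates 1 through 4. Its genotypes overlapped (log2 fold change 0.094, limma adjusted p = 0.518). Bag1, which releases ADP from Hsp70, had normalized counts of 8221, 7162, 7797 and 6797 in KO replicates 1 through 4, against 6374, 6365, 7013 and 6405 in WT replicates 1 through 4. KO replicate 4 lay within the WT range and the log2 fold change of 0.19 did not pass (limma adjusted p = 0.112). Bag2, which restrains the ubiquitin ligase Stub1, had normalized counts of 1593, 1697, 1699.8 and 1359 in KO replicates 1 through 4, against 1153, 1515, 1262 and 1196 in WT replicates 1 through 4. WT replicate 2 lay among the KO libraries (log2 fold change 0.31, limma adjusted p = 0.0912), and without it the log2 fold change was 0.39 and passed (limma adjusted p = 0.0380). Bag6, which shields hydrophobic stretches of new proteins, had all KO libraries below all WT libraries, a log2 fold change of -0.17 and no call, while Bag4 and Bag5 had -0.086 and -0.014.

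The 3 genes taken by prefix alone did not pass. Hspb11, which encodes a protein of intraflagellar transport rather than a chaperone, had normalized counts of 122, 101, 115 and 66.7 in KO replicates 1 through 4, against 93.4, 91.5, 121 and 63.5 in WT replicates 1 through 4. Hspbp1, a release factor of Hsp70, had normalized counts of 762, 879, 863 and 864 in KO replicates 1 through 4, against 844, 801, 948 and 915 in WT replicates 1 through 4. Hspbap1, a protein that binds Hspb1, had normalized counts of 228, 223, 245 and 242 in KO replicates 1 through 4, against 267, 255, 202 and 217 in WT replicates 1 through 4. The genotypes overlapped for each of the 3, with log2 fold changes of 0.13, -0.058 and 0.0047.

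Across the mice, KO replicate 3 held the highest value of 19 of the 74 chaperone genes, or 25.7%, against 14.5% of all genes. KO replicate 1 held that of 13 (17.6%, against 10.6% of all genes) and KO replicate 2 that of 2 (2.70%, against 11.6%). The lowest value lay in WT replicate 1 for 15 chaperone genes (20.3%, against 14.6% of all genes) and in WT replicate 4 for 14 (18.9%, against 10.6%). The other libraries held the highest value of 5 to 12 chaperone genes and the lowest of 4 to 11, and none of these shares was tested. Summed over the 74 genes, the level was 488363 to 568808 normalized counts in KO and 469880 to 517005 in WT, so the genotypes overlapped. As a share of each library it was 1.50 to 1.72% in KO and 1.40 to 1.48% in WT, with no overlap. The KO libraries had smaller totals. Before division by the totals, KO replicates 1, 3 and 4 (550426, 568808 and 526056) already lay above all WT libraries, and KO replicate 2 (488363) did not. The small heat shock proteins made up the largest part of the sum over the 74 genes, at 212410.0 to 257525 in KO and 197051 to 229158 in WT. Within genotypes the median SD was 0.14 on the log2 scale over the 72 chaperone genes with a mean of at least 10, and 0.21 over all 14789 genes with such a mean. The sets were not matched on level, on which this spread depends, and the difference was not tested. Of those with a mean of at least 20, Hspa1a, Hspa1b, Hspa12b and Hspb1 varied most, with SDs of 0.50, 0.42, 0.41 and 0.39.

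Other genes of the chaperone system were counted by role. Of 6 genes for heat shock factors or for proteins named as binding them, Hsbp1l1, a relative of the factor-binding protein Hsbp1, fell and none rose. No heat shock factor itself passed. Hsbp1l1 had normalized counts of 45.9, 36.7, 40.6 and 46.1 in KO replicates 1 through 4, against 98.0, 94.9, 81.7 and 71.5 in WT replicates 1 through 4, with all KO libraries below all WT libraries, a log2 fold change of -1.01 (limma SE 0.197, Benjamini-Hochberg adjusted p = 0.0117). Hsf1, the factor of the heat response itself, had -0.067 and Hsf2 had -0.22, and neither passed. Of 23 co-chaperones of Hsp70 and Hsp90, 2 rose and none fell, with a median of 0.01. Cacybp, which binds Hsp90 and calcyclin, had normalized counts of 1816, 1486, 1689 and 1811 in KO replicates 1 through 4, against 1318, 1361, 1424 and 1198 in WT replicates 1 through 4, and the genotypes did not overlap (log2 fold change 0.36, limma adjusted p = 0.0295). Ahsa2, a relative of the Hsp90 activator Ahsa1, had normalized counts of 1688, 1589.6, 1739 and 1430.3 in KO replicates 1 through 4, against 1194, 1487, 1187 and 1143 in WT replicates 1 through 4. WT replicate 2 lay above the lowest KO library (log2 fold change 0.37, limma adjusted p = 0.0439). Stip1 and St13, which link Hsp70 to Hsp90, did not overlap between genotypes but did not pass (log2 fold changes 0.18 and 0.22).

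Of 14 further mitochondrial chaperones and proteases, Clpx fell and none rose, with a median of -0.12. Clpx, the unfoldase of the mitochondrial Clp protease, had normalized counts of 3494, 3157, 2910.1 and 3146 in KO replicates 1 through 4, against 4499.5, 4429.8, 4853 and 4608 in WT replicates 1 through 4. The highest KO library lay far below the lowest WT library (log2 fold change -0.54, limma SE 0.0674, Benjamini-Hochberg adjusted p = 0.00193). Timm44, which tethers Hspa9 to the import channel, and Trap1, the Hsp90 of mitochondria, also had all KO libraries below all WT libraries without passing (log2 fold changes -0.23 and -0.20, limma adjusted p = 0.0623 and 0.0697). Of 16 chaperones of the endoplasmic reticulum, Serpinh1 rose and none fell, with 14 of 16 above 0 and a median of 0.16. Their summed level overlapped between genotypes, at 33568 to 36523 normalized counts in KO and 28922 to 35038 in WT. Serpinh1 (Hsp47), the collagen chaperone, had normalized counts of 2281, 2229, 2822 and 3073 in KO replicates 1 through 4, against 1751, 1840.0, 1855 and 1864 in WT replicates 1 through 4, and all KO libraries lay above all WT libraries (log2 fold change 0.50, limma adjusted p = 0.0152). None of 14 cytosolic chaperonin and prefoldin genes, 7 partners of chaperone-assisted autophagy or 13 immediate early genes passed, and their medians were -0.07, 0.18 and -0.03. The summed level of the immediate early genes, which respond within minutes to handling and dissection, was 14841 to 20393 normalized counts in KO and 12568 to 21825 in WT. Single genes differed, with 6 of the 13 above 0. Atf3 had 1341, 2308, 6000 and 1564 in KO replicates 1 through 4, against 1207, 994, 1178 and 758 in WT replicates 1 through 4 (log2 fold change 1.19, limma adjusted p = 0.0825). Junb had -0.93 (limma adjusted p = 0.122). The part of handling in the chaperone results was not tested.

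Markers of other cells and fiber types moved with genotype in these libraries. Of 9 macrophage markers 6 rose, with a summed level of 5063 to 6652 normalized counts in KO and 2899 to 3974 in WT. Of 7 fibroblast markers 3 rose (29044 to 44174 against 22931 to 27169.9 in WT), and of 5 fat cell markers 4 rose (9257 to 14035 against 7615 to 9502). Of 5 embryonic muscle markers 4 rose (9369 to 16507 against 2998 to 4788), and of 9 fast fiber markers 5 fell (940570 to 1013530 against 1376750 to 1538010). The other 4 fast fiber markers did not pass, with log2 fold changes of 1.86 for Myh4, 0.57 for Pvalb and -0.05 for both Mylpf and Myh1. Of 7 slow fiber markers 1 rose and 1 fell (1572240 to 1663790 against 1366910 to 1671780), and of 6 endothelial markers 1 fell (7884 to 10672 against 10062 to 12602). Of 6 satellite cell markers Pax7 fell, from a mean of 156 in WT to 55.1 in KO (log2 fold change -1.60, limma adjusted p = 0.0203). The other 5 did not pass, and 2 of the 6 lay above 0. The satellite cell sum (2951 to 3690 against 2937 to 4234) was mostly Sdc4, with means of 2355 in KO and 2112 in WT. None of 6 Schwann cell markers, 5 erythroid markers or the 2 neuron markers tested passed (Chat and Slc18a3 are not among the genes tested), with erythroid sums of 4978 to 59918 in KO and 10429 to 27358 in WT. Depth also moved with genotype. The part of these markers and of depth in the chaperone results was not tested, apart from the fit with depth given next.

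Each of the 8 called genes kept its direction under all 21 alternative settings, several of which cannot change a log2 fold change. With KO replicates 2 and 3 left out together, which had 18638 and 43384 normalized counts of the fast myosin Myh4 against 459.5 to 3625 elsewhere, Hsph1 alone passed (log2 fold change 0.79, limma adjusted p = 0.0179). With the recovered depth of each library as a covariate Hsph1 again was the one gene of the 74 that passed (0.90, limma adjusted p = 0.0461), while over all genes the calls dropped from 1466 to 58. Both fits have larger standard errors than the comparison above, by a median factor of 1.26 and 1.68 over all genes. With libraries scaled to equal totals, 12 chaperone genes were higher and 2 lower in KO, after 5 and 3, and over all genes 1279 were higher and 321 lower, after 845 and 621. That scaling moved the median log2 fold change of all genes by 0.08.

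**Figure D4:**
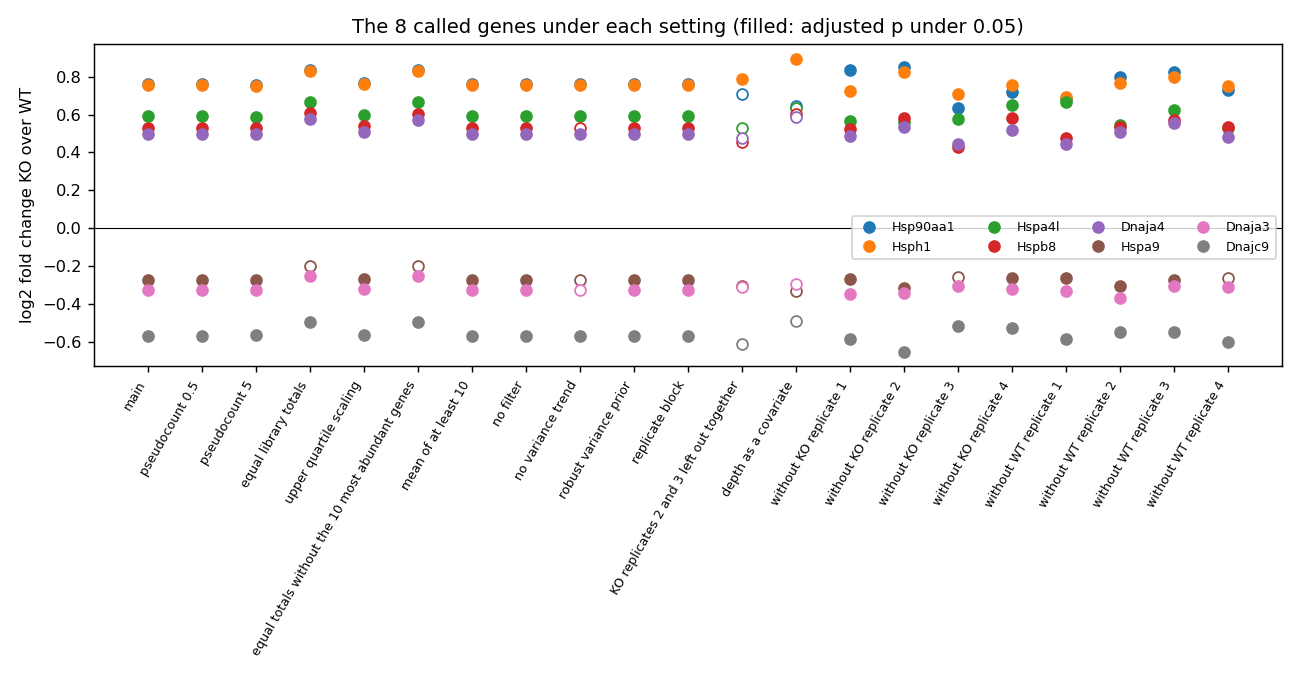
Log2 fold change of KO over WT (vertical axis) of the 8 called genes in the main comparison and under the alternative settings that change the fit (horizontal axis), with filled dots for an adjusted p under 0.05 and open dots otherwise. Every gene stays on its side of 0, and Hsph1 alone keeps a filled dot both without KO replicates 2 and 3 and with depth as a covariate.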

How the data were processed

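RNA was measured in 4 Megf10 KO and 4 WT soleus libraries. The authors used Trimmomatic 0.36 for trimming, FastQC 0.11.5 and MultiQC 1.0 for quality checks, and Salmon 0.11.3 for transcript quantification, with GRCm39 named in the submitters' processing notes. Genes with counts of 5 or less were dropped, and the gene counts were then scaled by DESeq2 in R 4.1.2. The signal values deposited by the authors, 1 table per library, are these normalized counts. The table deposited for the whole series holds the authors' own comparison (mean normalized counts, log2 fold changes with their errors, Wald statistics and p-values) and was not used.

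At most 36.5% of values up to 60 were whole reads at a tolerance of 0.01, so no count test was run. Limma 3.58.1 in R 4.3.3 (eBayes with trend, 2-sided) fitted genotype alone to log2(normalized count + 1), on which changes of low genes come out too small, with Benjamini-Hochberg adjustment over 16382 genes. A line with no gene name, 0.0112 to 0.0150% of each library, was left out. Replicates are single mice. Named with the value of every library are all members called, in each family the 2 of highest mean and the 1 of largest absolute log2 fold change among those with a mean of at least 10, and a set of well-known heat-inducible or muscle disease genes. The members and lists were chosen with earlier results of these data known. In simulated data for this comparison over 16382 genes, limma called 24% of 50 genes given a log2 change of 0.5, 64% of 50 given 1, 84% of 50 given 2 and 44% of 50 given -1. It called 3 unchanged genes there, and at most 1 in each of 10 runs without changes. The changed genes were drawn from genes at large above a low level. These rates need not hold for the chaperone genes, whose median SD within genotypes was smaller (0.14 against 0.21). Shared 31-base stretches and exon overlaps came from GENCODE M21, and promoters from RefSeq on GRCm38.p6. Tables and plots used Python 3.11.15, numpy 2.4.6, pandas 2.3.3 and matplotlib 3.10.9. Alternatives were 2 pseudocounts (0.5 and 5), 3 scalings, 2 filters, 2 variance priors, a threshold of 0.01, the replicate number as a block, depth as a covariate and libraries left out.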

Additional observations from a re-analysis of the deposited data

Results flagged for a closer look

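Among the genes named above, each genotype's 4 libraries were searched for a library whose gap to its nearest neighbour passed the critical value of Dixon's test. Of 66 groups 5 had such a library, and chance gives about 1 in 20. In KO replicate 2 Hspa9 had 20123 normalized counts, against 17873 to 18214 in the other KO libraries. In WT replicate 3 Bag1 had 7013, against 6365 to 6405. In KO replicate 4 Dnajc21 had 2604, against 2875 to 2906. In KO replicate 1 Hspbp1 had 762 and Dnajb1 had 314, against 863 to 879 and 367 to 374 in the other KO libraries.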

How the results depend on the processing

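The 8 called chaperone genes kept their direction under all 21 alternatives, several of which cannot change a log2 fold change, as given above. Pseudocounts of 0.5 and 5, upper quartile scaling, a mean of at least 10 and a robust prior each left 8 called. So did no filter, which is the main fit again, as no gene had a summed value of 5 or less. Over all genes the count called went from 1466 to 819 without a variance trend, 440.0 at an adjusted p under 0.01, 164 without KO replicates 2 and 3 and 58 with depth as a covariate. The count of chaperone genes was 5, 2, 1 and 1 under those 4 settings. Without a variance trend Hspb8, Dnaja3 and Hspa9 lost their calls (limma adjusted p = 0.0572, 0.0530 and 0.0794). The count of chaperone genes called was 14 with equal totals (12 higher) and 14 with equal totals after leaving out the 10 most abundant genes. Equal totals added Hspb1, Hsp90ab1, Hsp90b1, Hspa1l, Bag1, Bag2 and Dnajb2 and lost Hspa9. Without 1 library, 662 to 1231 genes and 7 to 10 chaperone genes were called, with the fewest genes without KO replicate 3 (662), WT replicate 3 (907) and WT replicate 4 (959). Without KO replicate 2 Hspb1 passed, and without WT replicate 3 Hspa1l did. Promoters with a pair of repeats in place of a run of 3 made up 26.7%, after 6.67%.

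Of the 33 genes named with the values of every library, 7 that did not pass changed the sign of their log2 fold change under at least 1 alternative. Equal totals gave Dnaja2 0.050, Hspb6 0.062, Hspbp1 0.021 and Dnajb1 0.017, and equal totals without the 10 most abundant genes gave Dnaja2 0.047, Hspb6 0.059, Hspbp1 0.017 and Dnajb1 0.014. Hspb6 had 0.027 without KO replicates 2 and 3 and 0.087 with depth, and Hspbap1 had -0.053 with depth. The cause was not tested. Over the fits without 1 library, log2 fold changes ran from -0.069 to 0.015 for Dnaja2, -0.044 to 0.028 for Hspb6, -0.064 to 0.068 for Hspbap1, -0.053 to 0.38 for Hspa1a, -0.15 to 0.025 for Dnajb1 and -0.035 to 0.32 for Hspb11.

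With the replicate number as a block, 1278 genes and 9 chaperone genes were called, and Hspb1 joined them (log2 fold change 0.69, adjusted p = 0.0468 from limma). The values gave no sign that the numbers pair the libraries. Deviations of libraries with the same number had correlations across genes of -0.0209, -0.0706, -0.00854 and -0.0461, and no library was most like its own number. This cannot show whether the numbers stand for litter, cage or dissection order, which are not given.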
